A study of Mus musculus with 36 samples.

Results

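The genes described here are 9 members of the netrin and Slit-Robo axon guidance systems (Ntn1, Dcc, Unc5c, Unc5d, Slit1, Slit2, Slit3, Robo1 and Robo2), out of 49943 genes counted on chromosomes 1 to 19, X and Y. They were taken by symbol, with the whole span that RefSeq gives each gene in GRCm38, and they had been selected on their lesion densities by tissue and assay in these libraries. Levels and differences between tissues or assays are therefore given as a description of these genes. Strand, place inside the gene, flanks and recurrence were not used to select them.

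SSiNGLe gives the positions of single-strand breaks (SSBs), interruptions of one DNA strand, to the nucleotide, and SSiNGLe-AP gives those of AP sites, where a nucleotide has lost its base. The material was bone marrow, PBMCs (mononuclear blood cells), liver, heart, brain and sperm of male C57BL/6J mice at 24 months, with 2 samples per tissue from 2 mice and no genetic alteration or treatment named in the labels of any group. Each sample supplied DNA for 1 SSB and 1 AP library, 24 in all, so every group of assay and tissue had n = 2. Red cells had been lysed in bone marrow, PBMCs had been separated on Ficoll, sperm were the motile cells of the epididymal tail, and the other organs were ground whole. Sperm DNA was isolated with a different kit from the DNA of the other tissues, so that the kit and the tissue cannot be told apart for sperm. In whole tissues, a smaller share of cells with lesions and fewer lesions per cell cannot be told apart either.

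The SSB libraries held 225011 to 1041983 positions and the AP libraries 460719 to 963258. The deepest SSB library, a heart sample, held 1041983, and the shallowest, of PBMCs, 225011. Density is given as LPKM, which is 1e+09 times the positions in a gene over the product of its length in bp and the positions of its library. The 9 spans add up to 5855786 bp and held 13689 SSB and 22403 AP positions, between 0.210% and 0.281% of an SSB library and between 0.240% and 0.288% of an AP library. RNA profiles of the same samples were not analysed here.

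The ligand genes were Ntn1 (gene ID 18208) on chromosome 11 from 68209364 to 68386826, Slit1 (20562) on chromosome 19 from 41597824 to 41747275, Slit2 (20563) on chromosome 5 from 47981291 to 48307735 and Slit3 (20564) on chromosome 11 from 35121456 to 35708507. The netrin receptor genes were Dcc (13176) on chromosome 18 from 71253613 to 72351228, Unc5c (22253) on chromosome 3 from 141465564 to 141834924 and Unc5d (210801) on chromosome 8 from 28646717 to 29219671. The Slit receptor genes were Robo1 (19876) on chromosome 16 from 72027518 to 73047491 and Robo2 (268902) on the same chromosome from 73891976 to 75447443. Slit1 was the shortest with 149452 bp and Robo2 the longest with 1555468 bp. No protein-coding gene overlapped any of the 9 spans. The 27 genes inside or across them were all of other classes and covered at most 14.3% of a span, that of Slit3.

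Netrin-1, the product of Ntn1, is a secreted cue that attracts growing axons through the receptor DCC and repels them through receptors of the UNC5 family, alone or together with DCC. Slit proteins are secreted repellents that bind receptors of the ROBO family and keep axons from crossing or recrossing the midline. Both systems also act outside the nervous system, in vessels, lung and kidney among others. DCC and UNC5 proteins are known as dependence receptors, which can start cell death when their ligand is missing.

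Slit2 and Slit3 each carry a miR-218 gene. RefSeq places Mir218-1 243 kb after the start of the Slit2 span (chr5:48223942-48224051, plus strand) and Mir218-2 495 kb after that of Slit3 (chr11:35616816-35616925, plus strand), in GRCm38.p6. The mature forms are shown because the 5p arm is the same in both hosts while the 3p arms differ, with bases 2 to 8, the seed, in capitals.
mmu-miR-218-5p (both hosts): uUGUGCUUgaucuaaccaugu
mmu-miR-218-1-3p (Slit2): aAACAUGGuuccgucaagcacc
mmu-miR-218-2-3p (Slit3): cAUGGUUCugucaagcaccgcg
The 110 bases of each hairpin held 0 SSB positions and 1 AP position over all libraries. The hairpin of Slit2 with 5 kb on each side held 23 SSB positions, with an exact 95% Poisson interval of 14.6 to 34.5, against 24.8 at the mean density of the gene. That of Slit3 held 50 (37.1 to 65.9) against 38.8. The corresponding AP values were 33 (22.7 to 46.3) against 37.4 and 95 (76.9 to 116) against 70.8. The surroundings of the miRNA in Slit2 were thus within counting error of the gene mean in both assays, and those in Slit3 lay above it for AP sites. Intervals cover counting error only.

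RefSeq promoter windows, from 250 bases before to 50 after an annotated start, matched 5 of the 9 genes (Unc5c, Slit2, Slit3, Robo1 and Robo2) with 7 windows. The Robo1 window and 2 of the 3 Robo2 windows are shown, because annotated starts lie deep inside both spans (described with the density along the genes). CpG dinucleotides are in capitals, and each line is written along the gene, 5′ to 3′.
Robo1, chr16:72662899-72663198, plus strand: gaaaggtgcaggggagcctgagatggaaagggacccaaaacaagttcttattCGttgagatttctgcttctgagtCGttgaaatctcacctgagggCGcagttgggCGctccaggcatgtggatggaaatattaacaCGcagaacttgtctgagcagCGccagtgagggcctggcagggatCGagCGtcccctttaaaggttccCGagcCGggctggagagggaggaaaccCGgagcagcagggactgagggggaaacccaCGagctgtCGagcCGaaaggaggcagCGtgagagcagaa
Robo2, chr16:75447244-75447543, minus strand: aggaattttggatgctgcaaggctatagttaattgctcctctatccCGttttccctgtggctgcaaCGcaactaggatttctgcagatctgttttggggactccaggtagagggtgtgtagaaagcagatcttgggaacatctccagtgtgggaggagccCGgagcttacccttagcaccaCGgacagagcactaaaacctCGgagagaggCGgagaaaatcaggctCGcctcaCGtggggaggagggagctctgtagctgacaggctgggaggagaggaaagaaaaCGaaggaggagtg
Robo2, chr16:74411776-74412075, minus strand: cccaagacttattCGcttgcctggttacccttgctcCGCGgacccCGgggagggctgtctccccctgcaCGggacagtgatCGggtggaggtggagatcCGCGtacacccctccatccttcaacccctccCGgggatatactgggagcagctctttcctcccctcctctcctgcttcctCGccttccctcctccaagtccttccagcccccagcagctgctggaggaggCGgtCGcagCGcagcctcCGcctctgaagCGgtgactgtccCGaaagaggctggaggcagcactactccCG
The Robo1 window lies 636 kb into the span and holds 15 CpG. The first Robo2 window lies at the start of its span and holds 9 CpG, and the next one shown lies 1036 kb into the span and holds 17. The Robo2 window not shown lies 355 kb into the span, holds 5 CpG and had 0 SSB and 0 AP positions. Slit3 had the most CpG among the 7 windows (41, with 78.3% G and C), against a median of 7 over all 32851 RefSeq windows, 94.6% of which hold at least 1 CG (the same letters on both strands). The 7 windows held 14 SSB positions, or 6.67 per kb with an exact 95% Poisson interval of 3.64 to 11.2, and 13 AP positions, or 6.19 per kb (3.30 to 10.6). Over all RefSeq windows the densities were 6.82 and 7.11 per kb, and over the 9 whole spans 2.34 and 3.83 per kb. The SSB interval lies above the density of the spans, whereas for AP sites that density falls inside the interval.

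The 9 genes fell into a group of high and a group of lower density, and the receptor genes were all in the latter. Slit1 had the highest LPKM-SSB, 0.906 ± 0.146 (SD over 12 libraries), above that of 97.3% of the 2742 genes of at least 100 kb, whose median was 0.473. Ntn1 followed with 0.715 ± 0.101 and Slit3 with 0.697 ± 0.0304, above 88.6% and 86.6% of these genes. Slit2 (0.455 ± 0.0755), Unc5c (0.440 ± 0.0816) and Unc5d (0.419 ± 0.0630) lay near the median, with spreads that overlapped. Robo1 had 0.363 ± 0.0454, Dcc 0.339 ± 0.0624 and Robo2 0.331 ± 0.0405, again with overlapping spreads, and these 3 longest genes lay above only 31.3%, 26.7% and 25.02% of the long genes. For AP sites the values ran from 0.962 ± 0.125 in Slit1 to 0.324 ± 0.0232 in Robo2, and the same 3 genes, Slit1, Slit3 (0.788 ± 0.0595) and Ntn1 (0.772 ± 0.0767), were on top.

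SSBs and AP sites were compared over the 12 samples, with the sample as a block and edgeR's quasi-likelihood test. Slit3 had fewer SSBs than AP sites relative to all genes, with a log2 ratio of -0.27 ± 0.06 (SE) and an adjusted p of 0.00451. It was the single member of 9 called, against 0.745% of the 41210 genes tested (0.590% called lower and the rest higher) and 6.68% of the 2739 long genes. The other 8 members had log2 ratios from -0.22 (Unc5d, adjusted p = 0.0945) to -0.03 (Slit2), beside a median of -0.11 over the long genes and -0.08 over all genes. The ratio depends on the scaling: with library size alone Slit3 was at -0.17 with an adjusted p of 0.112, Unc5c, Slit2, Robo1 and Robo2 turned positive at 0.03 to 0.06, and of all genes 108 were called higher and 65 lower, against 64 and 243 with TMM.

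Across the 6 tissues, LPKM-SSB differed for Dcc, Robo1 and Robo2 (edgeR, adjusted p = 0.000133, 0.00338 and 0.00686), and for none of the other 6 members. These are 3 of 9 members, against 0.125% of the 38486 genes tested and 1.61% of the 2738 tested genes of at least 100 kb. Since the tissue values took part in the choice of the genes, nothing is read from that difference. Unc5c (0.335) and Unc5d (0.676) were next by adjusted p, and Slit1, Slit2, Slit3 and Ntn1 were each at 0.992. The called genes are also the 3 longest, with 74 to 564 SSB positions per library. Slit3 had 92 to 426 and was not called, Unc5d had 45 to 248, and Ntn1, Slit1, Slit2 and Unc5c had 26 to 168. With DESeq2 and with limma all 3 calls were lost (adjusted p from 0.540 to 1), and those of Robo1 and Robo2 were also lost with library size alone, summed counts and equal depth (0.163 to 0.453).

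Dcc encodes the attractive netrin receptor. Its LPKM-SSB was 0.278 and 0.363 in bone marrow, 0.352 and 0.274 in PBMCs, 0.308 and 0.303 in liver, 0.382 and 0.363 in heart, 0.272 and 0.288 in brain, and 0.454 and 0.435 in sperm. Both sperm libraries were above the other 10 and brain had the lowest mean. Bone marrow and PBMCs overlapped with liver and with brain, while liver and brain did not overlap. Sperm exceeded the mean of the other 5 tissues by 0.54 ± 0.10 (SE) on the log2 scale, or 1.45-fold, with an adjusted p of 0.00280.

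Robo1 encodes a Slit receptor. Its LPKM-SSB was 0.267 and 0.307 in bone marrow, 0.353 and 0.327 in PBMCs, 0.350 and 0.361 in liver, 0.376 and 0.398 in heart, 0.404 and 0.405 in brain, and 0.416 and 0.398 in sperm. The 2 bone marrow libraries were the lowest of the 12. PBMCs overlapped with liver, and sperm overlapped with heart and with brain, while heart and brain lay apart from liver and from each other.

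Robo2 encodes the related receptor next to Robo1 on chromosome 16. Its LPKM-SSB was 0.259 and 0.278 in bone marrow, 0.340 and 0.320 in PBMCs, 0.376 and 0.305 in liver, 0.336 and 0.348 in heart, 0.325 and 0.310 in brain, and 0.389 and 0.385 in sperm. Bone marrow was lowest and sperm highest, without overlap with any other tissue, and the liver range took in those of PBMCs, heart and brain.

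In bone marrow, Robo1 lay below the mean of the other tissues by a log2 fold change of -0.56 ± 0.12 (adjusted p = 0.00438) and Robo2 by -0.49 ± 0.10 (0.00421). These 2 of 9 members compare with 0.190% of all genes called in this contrast, and with 0.166% called lower, and with 2.26% of the long genes called. Unc5c, a repulsive netrin receptor, had the lowest value of the 9 (-0.59 ± 0.16) but did not pass (adjusted p = 0.0959), nor did Slit2 (-0.47 ± 0.17), Unc5d (-0.42 ± 0.13), Dcc (-0.26 ± 0.11) or Slit3 (-0.21 ± 0.11). Slit1 and Ntn1 were at -0.03 ± 0.16 and 0.02 ± 0.17. The median over the 9 members was -0.42, beside -0.19 over the long genes and 0.04 over all genes. Both bone marrow libraries lay below the other 10 for 3 members, Unc5c, Robo1 and Robo2, against 1.27% of all genes and 5.51% of the long genes.

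The bone marrow contrast depended on the scaling. Without TMM the median over all genes was 0.16, a shift of 0.126, 21 genes were called higher and 8 lower in place of 9 and 64, Slit1 turned positive (0.10), and Robo1 was at -0.43 and Robo2 at -0.36 with adjusted p of 0.0964 and 0.113. Leaving out bone marrow replicate 1 ended the calls of both genes, as did leaving out liver replicate 1, heart replicate 1, brain replicate 2 or sperm replicate 1, and that of Robo2 was also lost without bone marrow replicate 2. Over the 12 leave-one-out fits Robo1 stayed between -0.62 and -0.45 and Robo2 between -0.52 and -0.40.

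**Figure D1:**
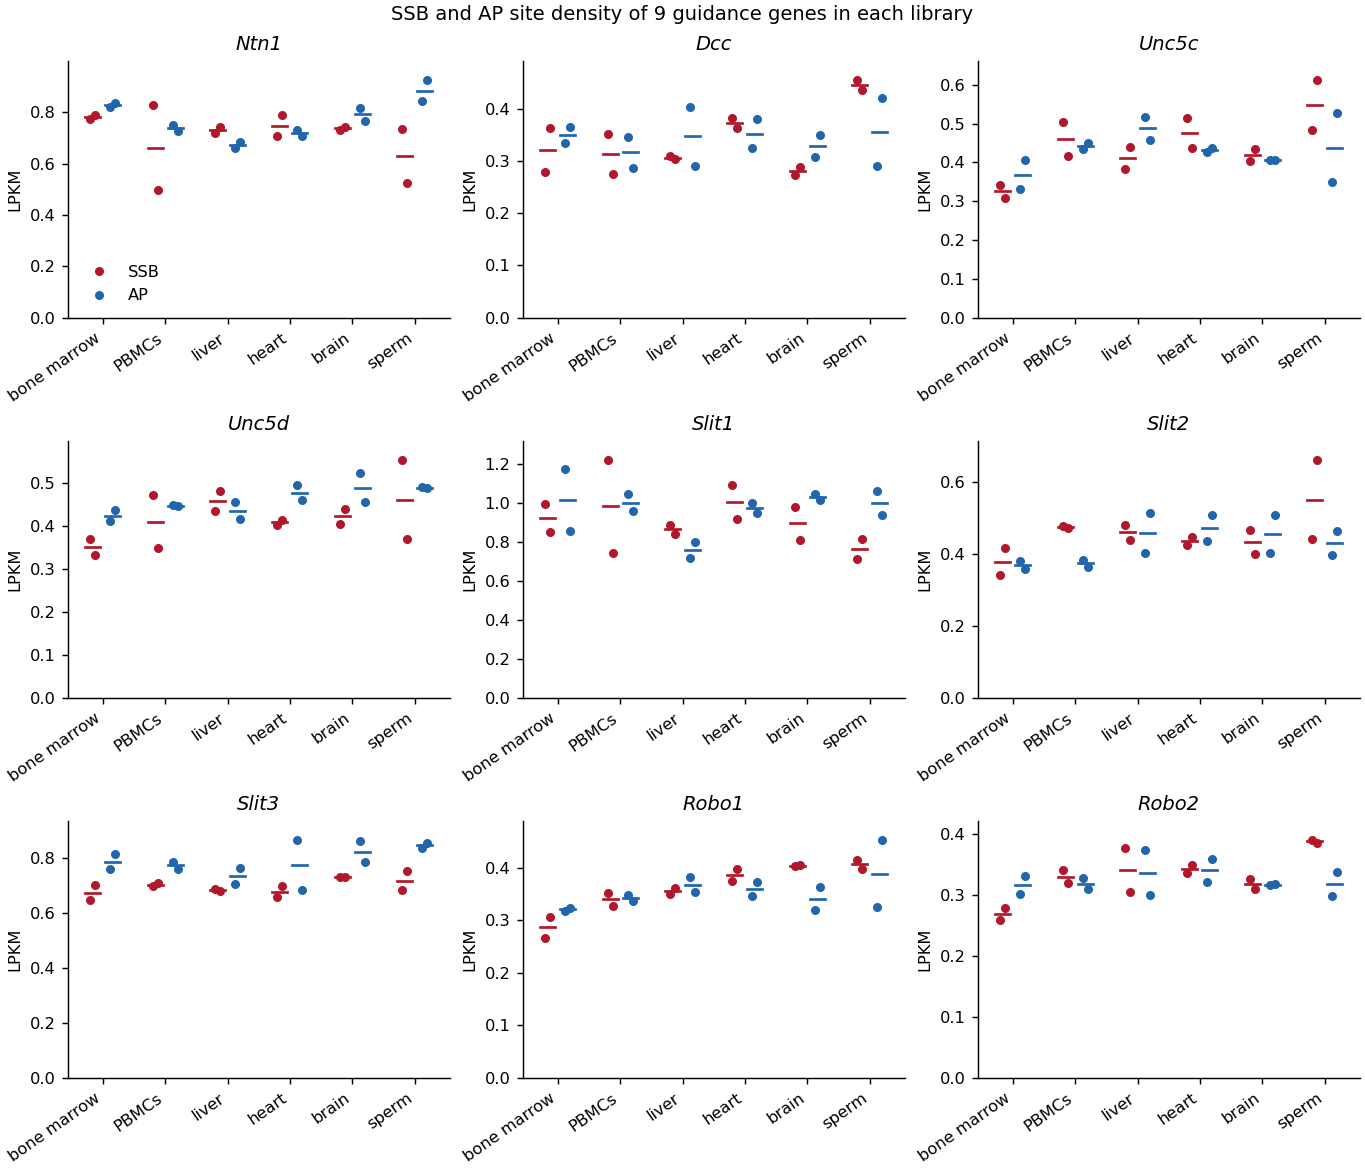
LPKM (vertical axis, lesions per kb of gene, scaled to library size) of each of the 9 genes in the 6 tissues (horizontal axis). Each point is 1 library (SSB in red, AP in blue) and each bar the mean of 2 libraries. The red points of bone marrow are the lowest for Robo1 and Robo2 and those of sperm the highest for Dcc and Robo2, while the 2 blue sperm points of Dcc (0.289 and 0.419) lie far apart.

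In sperm, Dcc was the 1 member of 9 called higher, against 0.0208% of all genes (8 genes, all of them higher) and 0.292% of the long genes. Unc5c (0.41 ± 0.15), Slit2 (0.35 ± 0.16), Robo2 (0.32 ± 0.09), Robo1 (0.25 ± 0.11) and Unc5d (0.24 ± 0.13) had positive values that did not pass, with adjusted p from 0.407 to 0.943. The ligand genes Ntn1 and Slit1 were at -0.14 ± 0.18 and -0.25 ± 0.18. Both sperm libraries lay above the other 10 for Dcc and Robo2, against 1.94% of all genes and 6.03% of the long genes. Without either sperm library the call of Dcc was lost (adjusted p up to 1), and its log2 value stayed between 0.50 and 0.59 over the leave-one-out fits.

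In brain, where these genes are best known, no member was called for SSBs, nor was any of the 38486 genes (0%) by edgeR, with 1885 at an unadjusted p under 0.05 and 0 by DESeq2 and 7 by limma. The members ranged from -0.24 ± 0.10 in Dcc to 0.25 ± 0.09 in Robo1. The 95% intervals of both leave out 0 (-0.43 to -0.04 and 0.06 to 0.43), and their adjusted p was 0.939.

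**Figure D2:**
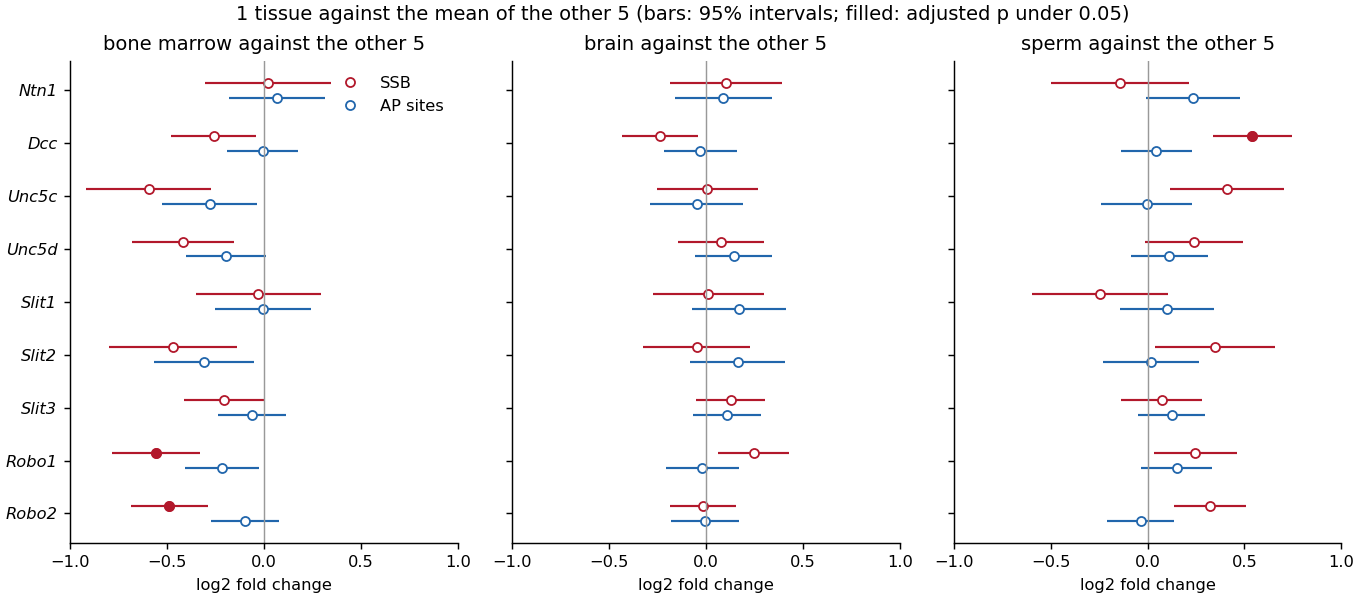
Log2 fold change of each gene in bone marrow, brain and sperm against the mean of the other 5 tissues (horizontal axis), for SSBs (red) and AP sites (blue), with 95% intervals and with filled points where the adjusted p was under 0.05. For SSBs in bone marrow Robo1 (-0.56) and Robo2 (-0.49) are filled, in sperm Dcc (0.54), and no AP value is filled.

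For AP sites, no member differed across tissues, and neither did any of the 41374 genes tested (0%) by edgeR, with 1219 genes and 0 members at an unadjusted p under 0.05, 0 genes by DESeq2 and 53 by limma. The contrasts of bone marrow, brain and sperm likewise called 0% of genes, with 1819, 1782 and 1555 at an unadjusted p under 0.05, while limma called 15 in each and DESeq2 1, 0 and 0. Robo1 had an LPKM-AP of 0.318 and 0.324 in bone marrow and 0.326 and 0.453 in sperm. Robo2 had 0.301 and 0.330 in bone marrow and 0.298 and 0.337 in sperm, and Dcc had 0.289 and 0.419 in sperm, so that bone marrow and sperm overlapped for Robo2 and Dcc. For Robo1 the bone marrow values were just below those of sperm and overlapped with brain (0.320 and 0.363). The bone marrow contrast was -0.22 ± 0.10 in Robo1, -0.10 ± 0.09 in Robo2 and -0.01 ± 0.09 in Dcc, and the sperm contrast of Dcc was 0.04 ± 0.09 with a 95% interval of -0.14 to 0.23. In bone marrow Slit2 (-0.31 ± 0.13) and Unc5c (-0.28 ± 0.12) had the lowest values, and 3 members had an unadjusted p under 0.05 by edgeR. The mean LPKM-AP was lowest in bone marrow for 5 members, against 17.1% of all genes and 21.3% of the long genes. The bone marrow libraries lay below the other 10 for 0 members (0.822% of genes), and the sperm libraries above them for Ntn1 alone (1.17% of genes).

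The difference between the assays was tested as the interaction of tissue and assay over all 24 libraries. The fit held no term for the sample, although each sample gave 1 library of each assay, so this pairing was not used. The interaction test called none of the 9 members and 0% of 41210 genes by edgeR, with 1556 genes at an unadjusted p under 0.05 and 0 genes called by DESeq2. Dcc (unadjusted p = 0.00397), Robo2 (0.0108) and Robo1 (0.0497) were the members under 0.05 before adjustment, and all adjusted p were 1. A pattern across tissues particular to SSBs was therefore not detected for these genes. On simulated counts with a set spread between libraries, the same test recovered 0.5% of genes changed 2-fold in SSBs of 1 tissue. At that spread, differences of that size would mostly be missed.

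Inside Robo1 and Robo2, lesions were spread unevenly in both assays. This was tested for each assay in the 5 genes with a known strand, by dividing the span at its midpoint into 2 equal segments and comparing the start segment with the end segment in each library. The share of SSBs in the start segment of Robo1 was 32.4% at the lowest, 37.9% at the median and 44.4% at the highest of 12 libraries, and that of AP sites 32.6%, 37.7% and 42.6%. No library of either assay reached 50%. The log2 ratio of the start segment to the other was -0.67 ± 0.07 for SSBs (adjusted p = 1.39e-21) and -0.74 ± 0.05 for AP sites (1.07e-39).

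Robo2 was also poorer in its start segment, with SSB shares of 38.5% at the lowest, 43.6% at the median and 53.0% at the highest and AP shares of 39.9%, 43.3% and 48.8%. Its log2 ratio was -0.38 ± 0.06 for SSBs (adjusted p = 3.05e-09) and -0.38 ± 0.05 for AP sites (3.23e-14). The start segment was below 50% in 11 of 12 SSB and in 12 of 12 AP libraries, the exception being a bone marrow library.

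Slit2 went the other way for SSBs, with shares from 45.5% to 63.8% around a median of 57.3%, a log2 ratio of 0.36 ± 0.10 and an adjusted p of 0.0131. Its AP ratio of 0.22 ± 0.08 did not pass (adjusted p = 0.0556). Slit3 had SSB shares from 42.2% to 53.3% with a median of 47.2% and a log2 ratio of -0.19 ± 0.06 (adjusted p = 0.0381), and an AP ratio of -0.06 ± 0.05 that did not pass (0.398). The values of Unc5c were -0.04 ± 0.10 for SSBs and -0.10 ± 0.08 for AP sites, both with 95% intervals that include 0.

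In all, 4 of 5 members were called by segment for SSBs, 1 higher and 3 lower in the start segment, against 7.28% of 25415 genes with a strand (3.36% higher and 3.92% lower) and 24.3% of the long genes among them. For AP sites 2 of 5 were called, both lower, against 17.5% of 26017 genes (11.6% lower) and 47.1% of the long genes. The median log2 ratio over the long genes was -0.09 for SSBs (quartiles -0.30 and 0.12) and -0.18 for AP sites (-0.40 and 0.04). Among the calls, Robo2 for AP sites and Slit3 for SSBs lay between these quartiles. Robo1 in both assays and Robo2 for SSBs lay below the lower quartile, and Slit2 for SSBs above the upper. Robo1 had the 20th smallest p of all genes for SSBs and the 21st for AP sites. The calls of Robo1 and Robo2 held in every leave-one-out fit and every other setting run. The call of Slit2 was lost without SSB heart replicate 2 (adjusted p = 0.105), with DESeq2 and with the outer segments when the span was divided in 3, and that of Slit3 in 6 of 12 leave-one-out fits (without bone marrow replicate 1, PBMCs replicate 2, either liver library, heart replicate 2 or brain replicate 2) and with DESeq2.

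**Figure D3:**
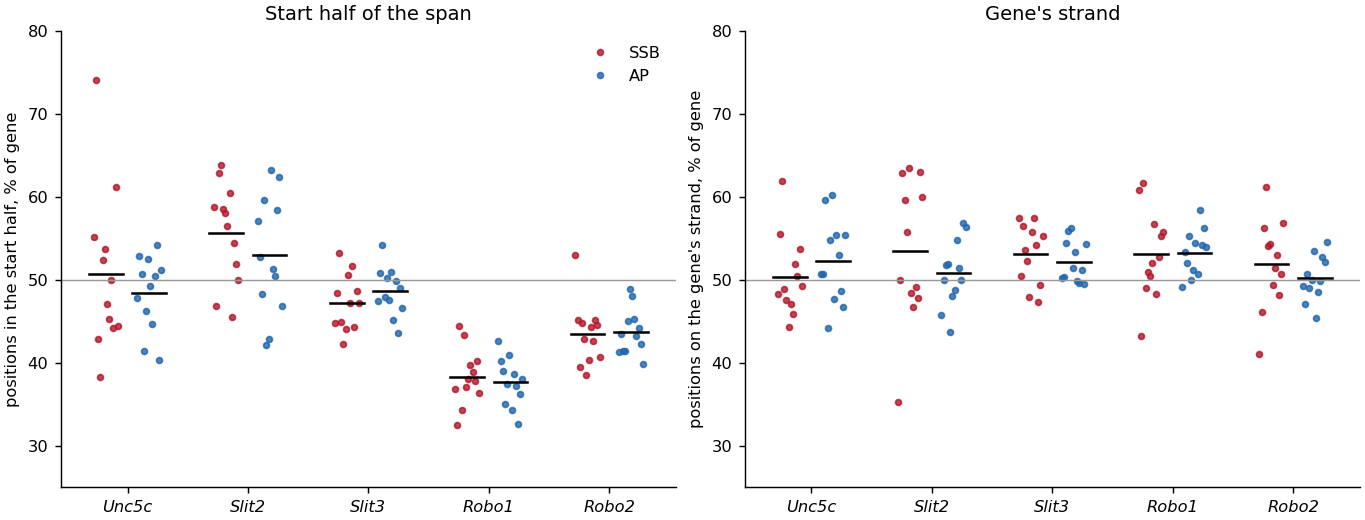
Share of positions (vertical axis, percent of the gene's positions in a library) in the start segment of the span (left) and on the gene's strand (right) for the 5 genes with a known strand. Points are libraries, 12 per assay (SSB red, AP blue), black bars their means, and the grey line is at 50%. Of Robo1 all 24 points lie under the line on the left, at most 44.4%.

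With the span in 10 equal parts, the density of Robo1 was higher toward the end of the gene. For SSBs it was 0.66 times the gene mean in part 2 and 1.41 times in part 10, and for AP sites 0.69 and 1.49 times. Parts 1 to 6 were below the gene mean and parts 7 to 10 above it, in both assays. The same division held in Robo2, with SSB values from 0.77 in part 2 to 1.31 in part 9. In both genes an annotated start lies near that division, 62.3% into the span of Robo1 and 66.6% into that of Robo2. The density after it was 1.65 ± 0.24 times (SD, 12 libraries) that before it for SSBs in Robo1 and 1.74 ± 0.18 times for AP sites, above 1 in 12 of 12 libraries of each. In Robo2 the ratios were 1.30 ± 0.10 and 1.30 ± 0.20, above 1 in 12 SSB and 11 AP libraries. Another annotated start of Robo2, 22.8% into the span and away from the division, had ratios of 1.17 ± 0.13 for SSBs (above 1 in 10 libraries) and 1.1996 ± 0.18 for AP sites (11 libraries). The side after it takes in the denser parts 7 to 10. For SSBs, parts 1 and 2 were at 0.96 and 0.77 times the gene mean and parts 3 to 6 at 0.87 to 0.90. For AP sites they were at 0.93 and 0.80 and at 0.84 to 0.92. No rise at this start is therefore read from its ratios. The ratios at the starts near the division also compare whole sides, which the profile already sets apart. No rise at those starts is read from them either. The comparison at annotated starts was chosen after the profile was seen and is given without a test.

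Unc5c and Slit2 had their densest parts at an end of the span. In Unc5c part 10 had 1.58 times the mean density for SSBs and 1.69 times for AP sites, and in Slit2 part 1 had 1.47 times in both assays. Slit3 was lowest in part 2, at 0.72 and 0.67 times. For Ntn1, Dcc, Unc5d and Slit1 parts were counted from the lower coordinate, and their SSB densities ranged from 0.66 to 1.499, 0.86 to 1.23, 0.82 to 1.21 and 0.73 to 1.23 times the mean. In windows of 50 kb, Spearman's rho between SSB and AP positions was 0.91 over 20 windows of Robo1, 0.72 over 31 of Robo2, 0.56 over 21 of Dcc, 0.59 over 11 of Slit3 and 0.76 over 11 of Unc5d. The windows of both assays share the same sequence and the same DNA samples.

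**Figure D4:**
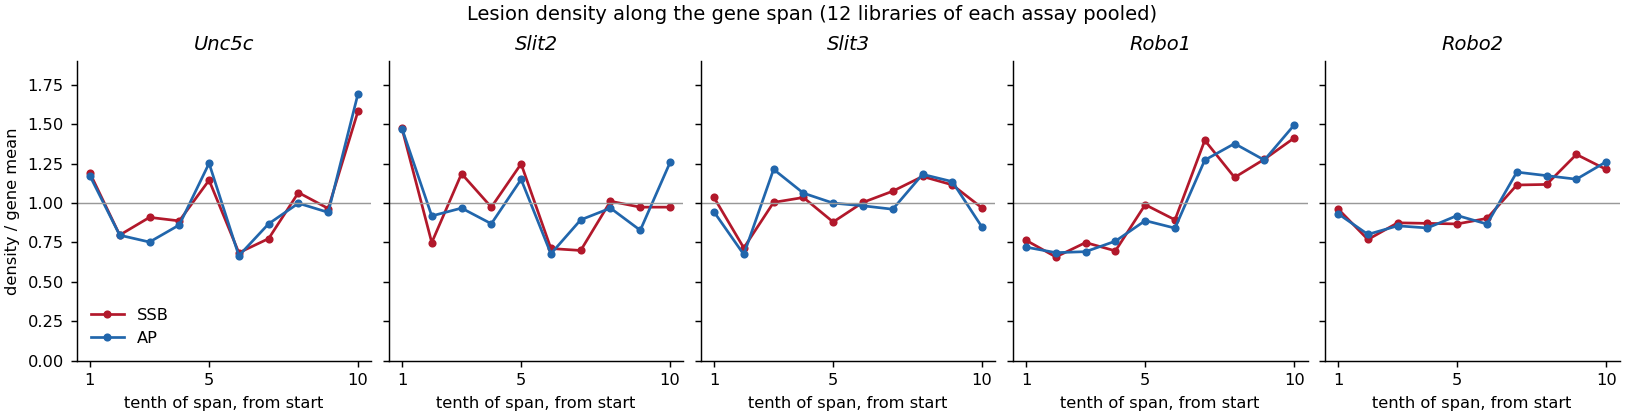
Density in each of 10 equal parts of the span divided by that of the whole gene (vertical axis), for Unc5c, Slit2, Slit3, Robo1 and Robo2. Parts are in order from the start of the gene, with the 12 libraries of an assay pooled (SSB red, AP blue). Robo1 rises from 0.66 to 1.41 for SSBs, Slit2 is highest in part 1 and Unc5c in part 10.

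By strand, the log2 ratio of SSBs on the gene's own strand to the other was positive for 4 of the 5 genes, and none of the 5 passed the test. Whether the strand column of the files gives the broken strand or that of the read is not given in the sources used here, so that every direction by strand could be the reverse. On simulated counts this test recovered 1.5% of genes at the smaller fold simulated, which was above the ratio of each of the 5 genes. Robo1 had 53.1% ± 5.3 (SD, 12 libraries) of its SSBs on its own strand, with 43.2% in the lowest library, 52.4% at the median and 61.7% in the highest. Its log2 ratio of 0.20 ± 0.06 had an adjusted p of 0.0707. Slit3 was at 0.17 ± 0.06 (0.117), Slit2 at 0.16 ± 0.10 (0.557), Robo2 at 0.10 ± 0.06 (0.501) and Unc5c at -0.05 ± 0.10 (0.914). Among all genes 2.57% were called, 638 of 654 higher on their own strand, and 19.1% of the long genes were called, and the mean share over genes of at least 100 kb was 53.8%. The median log2 ratio of the 5 members, 0.16, compares with 0.18 over all genes and 0.23 over long genes.

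For AP sites the strand ratio of Robo1 was 0.20 ± 0.05 (adjusted p = 0.129), with 10 of 12 libraries above 50%, and that of Robo2 was 0.00 ± 0.05. None of the 5 was called, against 0.0577% of all genes (15 genes). For the 4 genes without a strand in the tables, the share of SSBs on the plus strand of the chromosome was 44.2% in Unc5d, 45.0% in Ntn1, 47.4% in Slit1 and 48.1% in Dcc. Unc5d had more SSBs on the plus strand than on the minus strand in 0 of 12 libraries, and its AP share on the plus strand was 49.2%.

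Every one of the 9 genes was denser in lesions than its flanks, taken as 0.5 times the gene length on each side. The mean log2 ratio for SSBs was 0.83 ± 0.18 (SD, 12 libraries) in Slit1, 0.76 ± 0.21 in Slit2, 0.64 ± 0.32 in Unc5d, 0.54 ± 0.23 in Robo1, 0.53 ± 0.19 in Slit3 and 0.48 ± 0.25 in Dcc. It was lower in Unc5c (0.22 ± 0.22), Robo2 (0.12 ± 0.14) and Ntn1 (0.10 ± 0.23), where the SD was close to or above the mean. The ratio was above 0 in 12 of 12 SSB libraries for 5 genes, in 11 for Dcc, in 10 for Unc5c and Robo2 and in 8 for Ntn1. AP ratios ran from 0.16 ± 0.09 in Robo2 to 0.93 ± 0.38 in Slit1. Among all genes of at least 100 kb the median was 0.16 for SSBs and 0.18 for AP sites, with 63.5% and 65.4% of genes above 0. These medians come from the 12 libraries of an assay pooled, with 0.5 added to each count. The members' values are means over libraries, so the measures are not the same. With that limit, 7 of the 9 members lay above the median for SSBs.

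**Figure D5:**
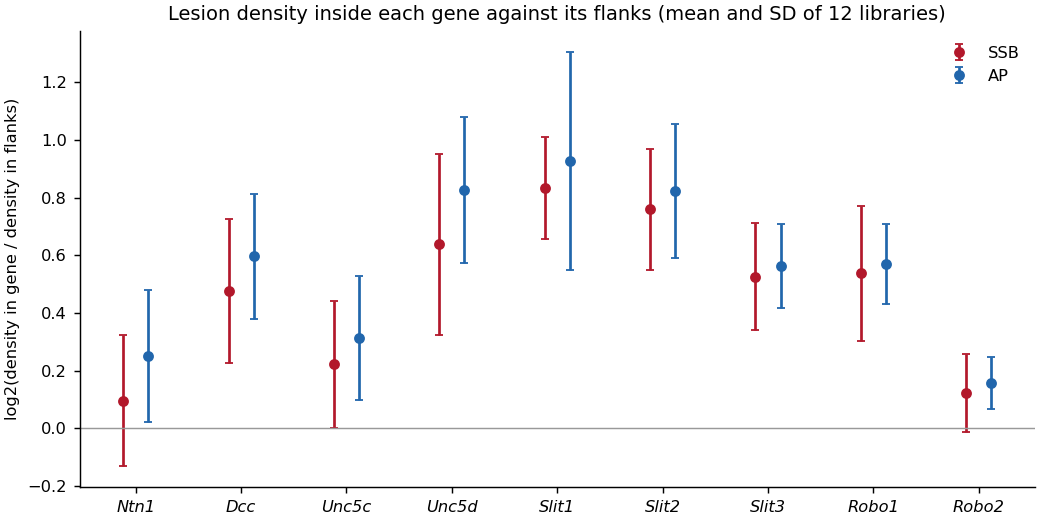
Log2 ratio of the density inside each gene to that of its flanks (vertical axis), as the mean and SD of 12 libraries per assay (SSB red, AP blue). All means are above 0, from 0.10 in Ntn1 to 0.83 in Slit1 for SSBs.

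Lesions seldom fell on the same nucleotide. Of 13626 nucleotides (with strand) broken in the 9 genes, 63 (0.462%) were seen in 2 SSB libraries and none in more, against 0.527% over all genes. For AP sites 331 of 22064 nucleotides (1.5002%) were seen in 2 or more libraries, against 1.48% over all genes, and 8 were seen in 3. Slit3 had the highest SSB share (0.761%, 17 nucleotides) and Unc5c the highest AP share (2.22%, 30 nucleotides). Only 71 of 13689 SSB positions (0.519%) carried a count above 1.

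Other genes of these systems were counted from lists. Among 22 netrin signalling genes none passed across tissues for SSBs. Unc5a, which encodes another UNC5 receptor, had the smallest unadjusted p (0.000920, adjusted p = 0.233), with an LPKM-SSB of 1.47 and 1.46 in bone marrow and 0.745 and 0.649 in sperm. Ntng1, which encodes the membrane-bound netrin-G1, followed with an adjusted p of 0.454 and values from 0.271 in a bone marrow library to 0.505 in a sperm library. By strand, where 2.57% of all genes and 19.1% of the long genes were called, the netrin list had 1 of 19, Dock1, a guanine nucleotide exchange factor for Rac, with a log2 ratio of 0.49 ± 0.07 (adjusted p = 2.94e-08), and Nck1, an adaptor protein, was next with 1.083 ± 0.35 (0.0613).

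Among 21 Slit-Robo signalling genes none passed across tissues for SSBs. Srgap3 had an adjusted p of 0.261 and Vasp, a regulator of actin filaments, 0.738. By strand 2 of 15 were called, against 2.57% of all genes and 19.1% of the long genes. Both were higher on their own strand: Clasp2, a microtubule-binding protein, at 0.78 ± 0.15 (adjusted p = 0.000119) and Srgap2 at 0.46 ± 0.12 (0.0133). Of 54 genes of the Eph, ephrin, semaphorin, plexin and neuropilin families, 1 passed across tissues, Epha3 (adjusted p = 0.00686), against 0.125% of all genes and 1.61% of the long genes. Epha3 encodes an ephrin receptor, and its LPKM-SSB was 0.197 and 0.251 in bone marrow and 0.507 and 0.448 in sperm. Sema4c followed with an adjusted p of 0.343. By strand 3 of 47 were called, all higher on their own strand, beside the same shares of 2.57% and 19.1%. Sema5a was at 0.48 ± 0.08 (adjusted p = 2.38e-06), Efna5 at 0.33 ± 0.09 (0.0232), and the other was Epha10, named after its values were seen.

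The gene whose LPKM-SSB was most like that of each member over the 12 SSB libraries was sought among 942 genes with a mean of at least 50 positions. Robo1 was most like Zmat4 (Pearson's r of log2 values = 0.96), Slit2 most like Sdk1 (0.91), Robo2 most like Ptprd (0.91), Unc5d most like Ntrk3 (0.90), Unc5c most like Tenm2 (0.89) and Dcc most like Cadm1 (0.87). Ntn1, Slit3 and Slit1 were most like Tmcc3 (0.85), Pvt1 (0.85) and Acoxl (0.84). Each is the highest of 942 values from libraries that share their depth and scaling, and the median over these genes lay between -0.08 and 0.16. Between members, r ranged from -0.60 for Ntn1 and Slit2 to 0.73 for Robo1 and Robo2, with 22 of 36 pairs above 0.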

How the data were processed

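SSBs and AP sites were profiled in 6 tissues of 24-month-old mice with 2 samples per tissue, 24 libraries in all. The authors deposited, for each library, a strand and position for every lesion with a raw count, not normalized and not pooled; the aligner and filters for these lists are not given in the sources used here, and the submitters' processing notes name mm10 and GRCm38, besides RSEM 1.2.28. Each position was counted once in the whole span of each RefSeq gene (GRCm38.p6), on either strand, and positions in overlapping genes were counted for each. At 225011 to 1041983 positions per library, short genes had few positions, so that small differences were not detectable.

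Genes with a position in at least 20% of the libraries were tested with edgeR 4.0.16 in R 4.3.3 (glmQLFit and glmQLFTest, library size set to the total of positions, Benjamini-Hochberg adjustment over all genes tested, threshold 0.05). Tissue, interaction and assay fits used TMM. Contrasts set 1 tissue against the mean of the other 5. Strand and segment were fitted without TMM, with the library as a block, for genes whose strand the RefSeq promoter table gives. SSBs and AP sites were compared with the sample as a block. The SE is the log2 fold change divided by the square root of its F, and intervals are 95%. On simulated counts, the SSB test across tissues recovered 0% of genes changed 1.5-fold in 1 tissue and 35% of those changed 2-fold, and the strand test recovered 1.5% of genes changed 1.25-fold and 84.5% of those changed 1.5-fold. The changed genes had a mean of at least 50 SSB positions per library. The spread between simulated libraries was a set value, not one estimated from these data, so recovery at the spread of these libraries was not determined. In the data, Dcc was called with sperm at 1.45-fold the mean of the other tissues. Counts were made with Python 3.11.15, numpy 2.4.6 and pandas 2.3.3; intervals with scipy 1.17.1 and figures with matplotlib 3.10.9.

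The members, the gene lists and the tests were chosen with earlier results of these data known. Besides the members, the genes named are the single most similar gene of each member and, from each list, the 2 with the smallest unadjusted p across tissues for SSBs and the 2 with the smallest by strand. Alternatives were DESeq2 1.42.0, limma 3.58.1 on log2(LPKM + 1), library size without TMM, other filters, summed counts, equal depth, a replicate block, the outer segments of a span divided in 3, and leaving out each replicate. Each tissue came from 2 mice. Which samples share a mouse across tissues is not given, so p-values measure the spread between these samples. RNA samples were not analysed here.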

Additional observations from a re-analysis of the deposited data

How the results depend on the processing

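The number of members called across tissues for SSBs, 3 of 9, was 0 with DESeq2, 0 with limma on log2(LPKM + 1), and 1 with library size only, with summed counts and with libraries thinned to equal depth; it was 3 with either other filter. In bone marrow the 2 calls became 0 under DESeq2, limma, library size only, summed counts and equal depth. In sperm the 1 call became 0 with limma and was kept otherwise. By segment of the span for SSBs, DESeq2 called 2 members in place of 4, and for SSBs against AP sites DESeq2 and library size only called 0 in place of 1. The causes were not tested. The results that called no member in edgeR called none under these alternatives.

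Leaving out each library in turn gave 0 to 3 members across tissues for SSBs, 0 to 2 in bone marrow, 0 to 1 in sperm, 0 to 1 by strand for SSBs, 2 to 4 by segment for SSBs, 2 to 3 by segment for AP sites and 1 to 2 for SSBs against AP sites, and 0 elsewhere. A tissue left with 1 library was assumed to vary like the others. Dcc lost its call across tissues without SSB sperm replicate 1 (adjusted p = 0.226). Robo1 lost it in 5 of 12 such fits and Robo2 in 7 of 12. No called member changed direction in any fit.

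Same-numbered samples did not deviate together: over 3230 genes for SSBs the correlation between tissues had a median of 0.00 with 0 of 15 tissue pairs above 0.1, and over 5440 genes for AP sites a median of -0.01 with 1 of 15, so the numbers were not taken as pairs. With a replicate block, the members called were the same in number, 3 across tissues, 2 in bone marrow and 1 in sperm for SSBs, and 0 elsewhere. Over all genes the block called 59 in place of 48 across tissues for SSBs. Counts over all genes that moved by more than 1.5 times were, across tissues for SSBs, 4 with DESeq2, 15 with library size only, 16 with summed counts and 10 at equal depth in place of 48. In bone marrow they were 8, 29, 14 and 5 under the same settings and 7 with limma in place of 73. In sperm, DESeq2 called 14, the stricter filter 27 and summed counts 3 in place of 8. For SSBs against AP sites, DESeq2 called 43 and library size only 173 in place of 307. By segment DESeq2 called 935 in place of 1850 for SSBs and 2818 in place of 4544 for AP sites, and by strand it called 0 in place of 15 for AP sites. Summed counts gave 2 genes for the interaction and equal depth gave 1 for SSBs in brain, in place of 0. Leaving out 1 library gave 4 to 65 genes across tissues for SSBs, 0 to 96 in bone marrow, 0 to 10 in sperm and 6 to 20 by strand for AP sites. With the outer segments of a span divided in 3, Unc5c was called for AP sites at -0.44, from -0.10.

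With 26 to 168 positions per SSB library in Ntn1, Slit1, Slit2 and Unc5c, the SE of a bone marrow contrast was 0.16 to 0.17, against 0.13 in Unc5d and 0.10 to 0.12 in Dcc, Slit3, Robo1 and Robo2.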
